A study of Sus scrofa with 36 samples.

Results

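The transcripts described here are the long noncoding RNAs (lncRNAs) of the neonatal pig heart whose read counts were higher at postnatal day 28 (P28) than at day 1 (P1). They were chosen by their measured values. A gene row annotated as lncRNA was taken when its mean over the 3 P28 libraries was at least 2 CPM (the count divided by all gene counts of the library and multiplied by 1000000) and at least 2 times the mean over the 3 P1 libraries, and 3 rows that met this in an interval of chromosome 1 set aside by the rule were left out. This gave 58 lncRNAs of 2038 lncRNA rows, in a table of 9815 gene rows from chromosomes 1, 6 and 13 and from part of chromosome 2. None of the 58 has a gene symbol, so they are named by their ENSSSCG identifiers, and none of 23 well-known lncRNAs looked for by symbol is named in the table.

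The study followed the hearts of normally fed domestic Yorkshire pigs of both sexes at 4 ages (P1, P3, P7, P28), 6 pigs per age, with no treatment or genetic change. The values here come from the 12 animals of batch cd, 3 at each age, from which total RNA was depleted of rRNA and sequenced after a strand-keeping preparation. The samples were whole heart tissue with myocytes and other cells, so a larger share of cells that make a transcript and more of it per cell cannot be told apart. The replicate numbers 4, 5 and 6 come from the column names and tell the pigs of one age apart.

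A lncRNA is an RNA that is not translated into a protein and is longer than the small regulatory RNAs. Some lncRNAs act on transcription of the genes beside them, some act elsewhere in the cell, some are the precursors of miRNAs, and for many the act of transcription rather than the RNA is what has been linked to an effect. Their levels are usually low and differ strongly between tissues and stages, and the weeks after birth, when cardiomyocytes leave the cell cycle and change to fatty acid use, are a period of broad change in heart RNA.

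Library totals ran from 8887176 to 14883849 gene counts, and 3 counts corresponded to between 0.202 and 0.338 CPM. Of the marker genes of heart muscle cells, 9 of 18 were in the table and none of them was at 0, with summed levels of 73637 to 100422 CPM over the 12 libraries, 2 called higher at P28 and 1 lower. Markers of other cells moved over the same interval as the lncRNAs. The summed level of 13 leukocyte markers (of 17 listed) was 1696 to 1827 CPM at P1 and 2196 to 2270 CPM at P28, and 8 of the 11 that were tested were called higher (9.91% of all protein-coding genes were). The summed level of 4 fibroblast markers (of 11 listed) was 3667 to 4476 CPM at P1 and 1149 to 1469 CPM at P28, and 3 of them were called lower (12.5% of all protein-coding genes were). Levels of 4 endothelial markers summed to 674 to 782 CPM at P1 and 649 to 720 CPM at P28 with 1 called higher and 1 lower, 2 erythroid markers to 1852 to 2573 and 1428 to 1744 CPM with 1 called lower, and 5 adipocyte markers to 42.9 to 54.0 and 52.3 to 79.2 CPM with 1 called higher and 1 lower. No smooth muscle marker of the 4 listed was in the table. Several sums rest largely on 1 or 2 genes. Of the fibroblast markers, FBN1 had a mean of 3672 CPM at P1 and 1041 CPM at P28. Of the erythroid markers, TFRC had 2207 and 1542 CPM. Among the leukocyte markers CD74 had 984 and 1406 CPM, and CD79A went the other way with 609 and 543 CPM. The sums are therefore not measures of the share of a cell type. The part of these marker shifts in the lncRNA values below was not tested.

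The 58 lncRNAs together made up 351 to 388 CPM in the P1 libraries, 390 to 620 CPM at P3, 590 to 735 CPM at P7 and 1198 to 1530 CPM at P28. The median ratio of P28 to P1 means was 3.38, with a range from 2.00 to 43.3, and 19 of the 58 stood at 5 times P1 or more. All 3 P28 libraries lay above all 3 P1 libraries in 55 of the 58 (94.8%), which the choice of the members largely fixes, where the share was 21.8% of all genes tested, 22.9% of the lncRNA rows tested and 87.7% of the 154 protein-coding rows chosen by the same rule. In the fit over all genes 56 of the 58 had a higher call at P28 than at P1, 44 of them at an adjusted p under 0.05, where 18.2% of all lncRNA rows tested were called higher. Because the same contrast chose the members, these counts carry no weight as a test. The 3 whose P1 and P28 values overlapped were ENSSSCG00000050303, ENSSSCG00000041050 and ENSSSCG00000048228.

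The rule picked a larger share of lncRNA rows than of protein-coding rows. Of 339 lncRNA rows with a P28 mean of at least 2 CPM, 18.0% also met the fold, and of 4105 such protein-coding rows 154 did (3.75%). The 18.0% includes the 3 rows left out on chromosome 1. The lncRNA and protein-coding rows were not matched for level, and the difference between these shares was not tested. The mirror rule, at least 2 CPM at P1 and at least 2 times the P28 mean, gave 34 lncRNA rows. Members were found on all 4 chromosomes, with 9 on chromosome 1, 13 on chromosome 2, 17 on chromosome 6 and 19 on chromosome 13, against 79, 79, 103 and 78 lncRNA rows of at least 2 CPM on them.

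**Figure D1:**
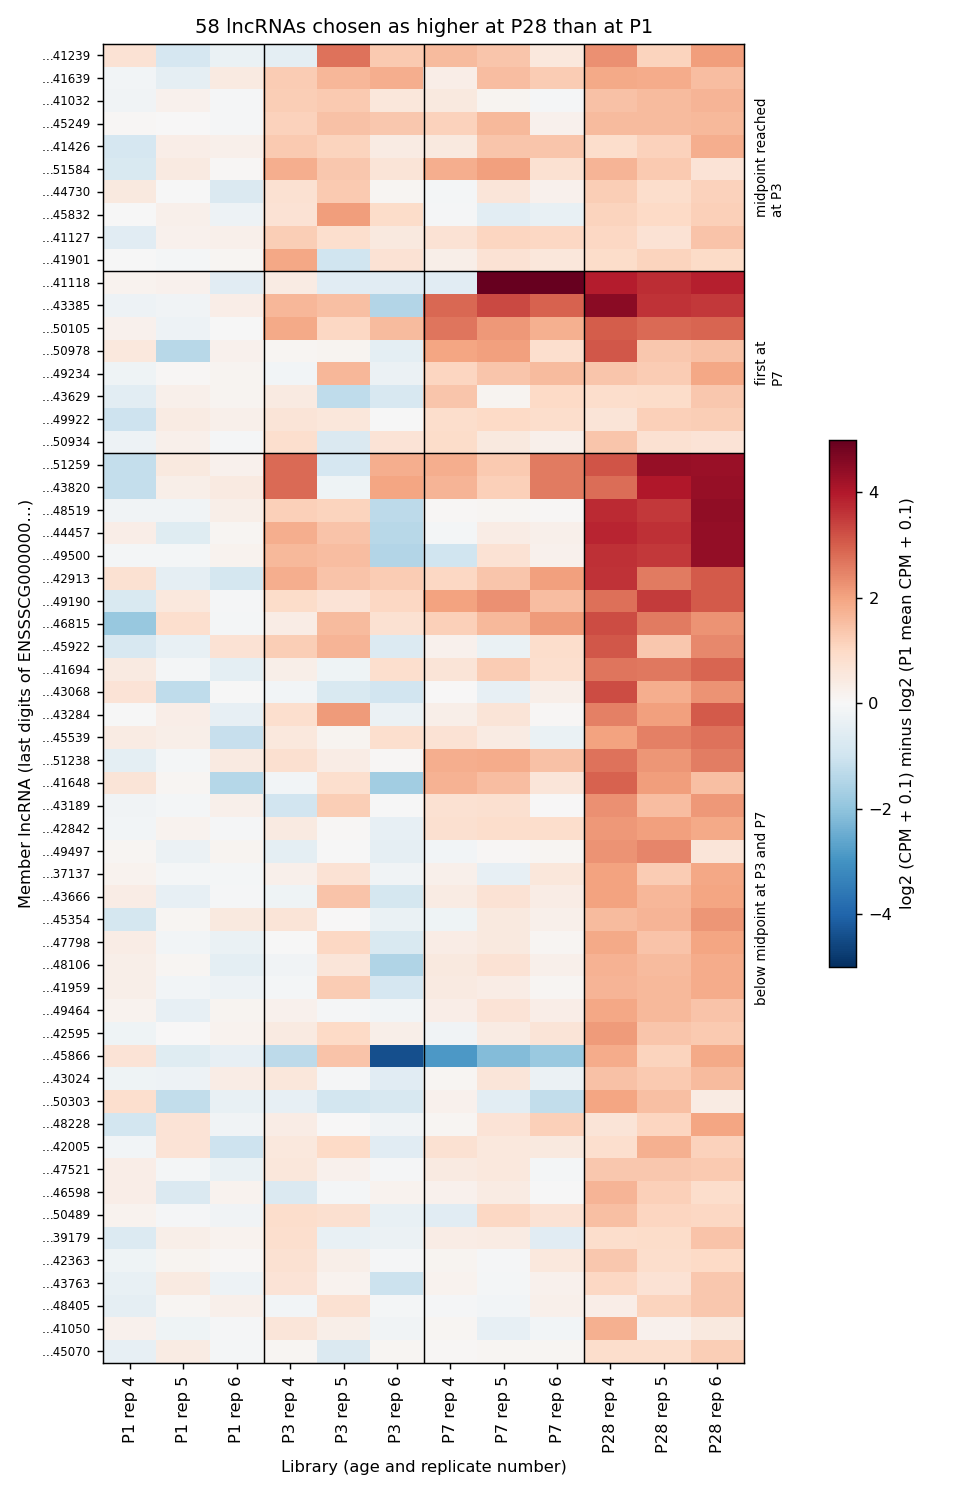
Heat map of the 58 lncRNAs (rows) in the 12 libraries (columns, by age and replicate), coloured by log2 (CPM + 0.1) minus log2 of the P1 mean CPM plus 0.1, with colours saturating at both ends of the scale. Rows are grouped by when the mean reached the midpoint between P1 and P28 and ordered by the P28 to P1 ratio; in the lower 40 rows the means at P3 and P7 lie below the midpoint.

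One transcript stood far above the others in level. ENSSSCG00000051238 lies at chr2:150745634-150756245, 7.55 kb from the row of ARHGEF37 and overlapping the longer RefSeq span of that gene. Its values were 55.8, 71.6 and 105 CPM at P1, 135, 100 and 81.4 CPM at P3, 271, 280 and 215 CPM at P7, and 508, 361 and 460 CPM at P28. Each P7 value lay above each P3 value and each P28 value above each P7 value, and only P1 and P3 overlapped. Per kb of gene length it reached 196 CPM at P28, where the median over the 58 was 2.41 and the next, ENSSSCG00000050303, reached 33.7. Another lncRNA row, ENSSSCG00000051426, overlaps it and stayed near 31.8 CPM at P1 and 31.2 CPM at P28. Strand is not given in the gene table, so reads of overlapping rows cannot be assigned beyond the authors' own counting.

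ENSSSCG00000050303, at chr6:142256871-142371170, measured 69.5, 16.5 and 30.1 CPM at P1, 29.2, 20.7 and 22.0 CPM at P3, 44.8, 26.8 and 16.4 CPM at P7 and 154, 109 and 51.4 CPM at P28. P1 replicate 4 exceeded the lowest P28 library, so the groups overlapped, and no P7 library stood above the P1 range. ENSSSCG00000041127, at chr13:125553917-125561115 and 161 kb from BCL6, a transcriptional repressor, measured 23.1, 39.9 and 40.9 CPM at P1, 81.5, 62.6 and 48.7 CPM at P3, 57.6, 73.1 and 71.2 CPM at P7 and 70.1, 57.2 and 93.9 CPM at P28. All 9 later libraries lay above the 3 P1 libraries, and the P3, P7 and P28 values overlapped with each other. ENSSSCG00000047521, at chr13:71622977-71629920 and 0.14 kb from the splicing factor gene ISY1, had 19.1, 14.0 and 11.9 CPM at P1, 22.1, 17.3 and 14.3 CPM at P3, 20.5, 21.5 and 14.1 CPM at P7 and 38.3, 38.6 and 37.0 CPM at P28. Its 9 earlier values were mixed across ages, and the 3 P28 values lay close together above them. An overlapping lncRNA row, ENSSSCG00000042689, had means of 12.4, 14.9, 16.6 and 14.0 CPM at the 4 ages. How reads were divided between these 2 rows cannot be told.

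The steepest ratio came from a transcript that was near absence at P1 and P3. ENSSSCG00000041118 spans chr13:37178127-37300497 with 1198 bases of gene length, 44.2 kb from WNT5A, a Wnt ligand of the noncanonical branch. It had 0.0672, 0.0722 and 0 CPM at P1, 0.0961, 0 and 0 CPM at P3, 0, 7.90 and 7.77 CPM at P7 and 2.16, 1.81 and 2.08 CPM at P28. Of the 3 P7 pigs 1 had no read and the other 2 stood above every P28 pig. Pooled over libraries, 72 counts at P28 against 2 at P1 gave a ratio of 41.0 with a 95% counting interval from 10.9 to 345, by the exact binomial method and for counting error only, a description of a member chosen on this contrast.

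ENSSSCG00000043385, at chr6:100172449-100204104 and 79.5 kb from PTPRM, a receptor tyrosine phosphatase of cell contacts, was the next in ratio (23.9 times). This ratio rests on 2, 2 and 3 counts in the P1 libraries. Its values were 0.134, 0.144 and 0.249 CPM at P1, 0.769, 0.675 and 0 CPM at P3, 1.91, 2.66 and 2.02 CPM at P7 and 6.24, 3.31 and 3.07 CPM at P28. Here the 3 P7 and the 3 P28 libraries formed separate, rising ranges above P1 and P3. The remaining lncRNAs with the highest ratios were 2 neighbouring pairs on chromosome 13, ENSSSCG00000051259 with ENSSSCG00000043820 (21.9 and 19.1 times) and ENSSSCG00000048519 with ENSSSCG00000044457 (17.1 and 16.5 times), which are described with the genomic groups. At P1 ENSSSCG00000051259 had 1, 6 and 4 counts and ENSSSCG00000043820 had 1, 5 and 5, so their ratios and ranks also rest on few reads.

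At the edges of the rule, the members with the lowest P28 means were ENSSSCG00000041118 (2.01 CPM) and ENSSSCG00000045922 (2.16 CPM), and the rows just outside were ENSSSCG00000042835 (1.90 CPM) and ENSSSCG00000041910 (1.82 CPM). The lowest ratios inside were those of ENSSSCG00000045070 (2.00) and ENSSSCG00000041050 (2.01), and just outside lay ENSSSCG00000047270 and ENSSSCG00000046941 (both under 2, at 1.997 and 1.97). The values of ENSSSCG00000041050 were 17.6, 13.1 and 14.7 CPM at P1 and 52.8, 17.4 and 21.1 CPM at P28, so its place inside rests on P28 replicate 4. It also overlaps ENSSSCG00000048856, a lncRNA row with a mean of 27391 CPM at P1 and 37218 CPM at P28. Reads shared between the 2 rows and separate transcripts cannot be told apart, and misassignment of reads was not tested. Of the 58, 16 had a P28 mean of at least 20 CPM and 19 were under 5 CPM.

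The timing is a description, since the P1 and P28 means that the rule used set the midpoint and the size of the rise. Each member's mean at P3 and P7 was set against the midpoint between its own P1 and P28 means. At P3, 10 of the 58 had reached the midpoint, at P7 a further 8 reached it for the first time, and 40 (69.0%) were below it at both ages. Among the 154 protein-coding rows chosen by the same rule the counts were 21, 30 and 103 (66.9% below at both), and the difference was not tested. The median over the members of P3 over P1 was 1.36, of P7 over P1 1.42, of P7 over P3 1.05 and of P28 over P7 2.20. The median share of a member's rise that was present was 12.3% at P3 and 16.5% at P7. The 3 P28 libraries lay above the 3 P7 libraries in 43 of the 58 (74.1%), against 14.9% of all genes tested, 14.5% of the lncRNA rows tested and 59.7% of the protein-coding rows chosen by the same rule. They lay above the 3 P3 libraries in 40 of the 58 (69.0%), against 12.8%, 12.6% and 65.6% of the same sets. The P28 side of both comparisons entered the rule, so nothing is read from these counts.

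Among those that were up at P3, ENSSSCG00000045249 lies at chr6:64697040-64703082, 1.39 kb from PRDM16, a transcription regulator of compact heart muscle and brown fat. It measured 12.3, 11.9 and 11.3 CPM at P1, 26.2, 33.0 and 29.9 CPM at P3, 26.3, 36.8 and 13.8 CPM at P7 and 35.7, 35.5 and 36.7 CPM at P28. The P1 values were below all others, and P7 replicate 6 was the only later library close to them. PRDM16 itself had means of 33.5, 64.4, 54.6 and 73.6 CPM at the 4 ages, and a link between the 2 rows was not tested. In 4 members a P3 or P7 mean exceeded the P28 mean, and these were ENSSSCG00000041118, ENSSSCG00000051584, ENSSSCG00000045832 and ENSSSCG00000041901. ENSSSCG00000051584, at chr13:46214286-46219222, beside ADAMTS9, measured 2.55, 5.99 and 4.49 CPM at P1, 15.8, 11.3 and 6.77 CPM at P3, 15.5, 18.2 and 7.45 CPM at P7 and 14.2, 11.0 and 7.02 CPM at P28. Its 9 later values all lay above P1 and overlapped with each other.

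Among those first at the midpoint at P7, ENSSSCG00000050105, at chr13:50857735-50861285 and within the RefSeq span of FRMD4B, measured 3.09, 2.24 and 2.66 CPM at P1, 10.3, 5.63 and 8.25 CPM at P3, 17.8, 12.3 and 9.47 CPM at P7 and 22.4, 19.7 and 20.8 CPM at P28. P1 and P28 stood apart from all other ages, and P3 and P7 overlapped in 1 library each. ENSSSCG00000049922 had 1.81, 5.13 and 4.57 CPM at P1, 6.06, 5.74 and 3.74 CPM at P3, 7.06, 7.75 and 7.12 CPM at P7 and 6.01, 8.82 and 9.10 CPM at P28. Its P7 values were close together and above every P1 and P3 value.

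**Figure D2:**
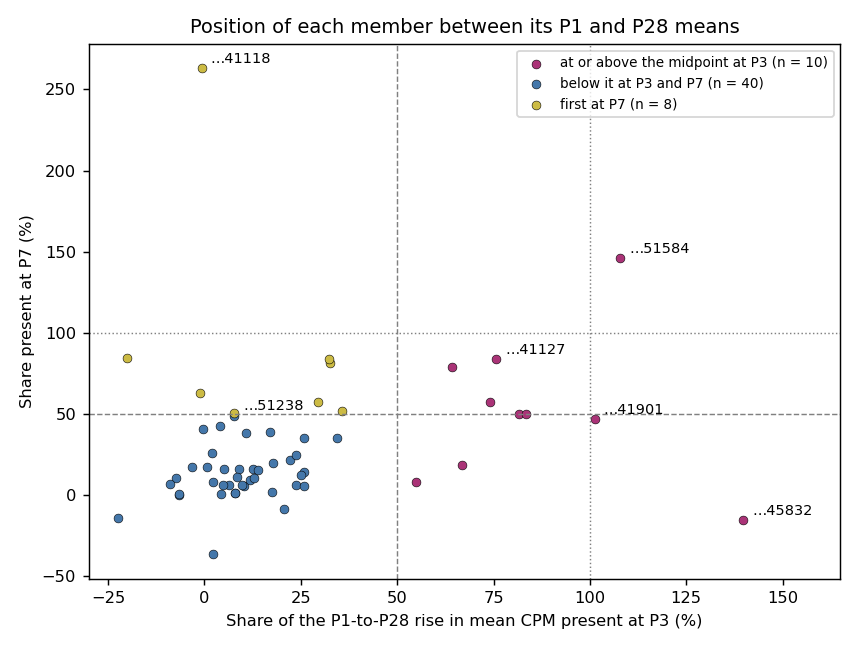
Each point is 1 of the 58 lncRNAs, placed by the share of its P1-to-P28 rise in mean CPM that was present at P3 (horizontal, %) and at P7 (vertical, %). Dashed lines mark the midpoint and dotted lines the P28 mean; 40 points lie in the lower left field, and ENSSSCG00000041118 lies at 263% at P7.

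P3 and P7 were the ages that the rule did not use, so this comparison was tested. ENSSSCG00000041118, ENSSSCG00000045922, ENSSSCG00000046815 and ENSSSCG00000043189 met the filter of at least 10 counts in at least 3 libraries only through P28. ENSSSCG00000041118 is among the higher calls at both thresholds below, so the shares of members called are not free of the rule. With edgeR's quasi-likelihood test over 5526 genes, 8 of the 58 (13.8%) were called higher at P7 than at P3 (unadjusted p not above 0.05, log2 fold change above 0.5), and 6.51% of all genes tested were called higher. Lower calls were made for 3 members (5.17%), where 6.46% of all genes were called lower. At a Benjamini-Hochberg adjusted p under 0.05, 2 members were higher and 1 lower, against 1.61% and 0.597% of all genes. The median log2 fold change was -0.02 over the members and -0.02 over all genes. Of 153 tested protein-coding rows chosen by the same rule 23 (15.0%) were called higher and 6 lower, with a median log2 fold change of 0.19. The higher count depended on single pigs: it was 13 without P3 replicate 5, 6 without P3 replicate 6 and 5 without P7 replicate 4. The lower count was 7 without P3 replicate 6. At the unadjusted threshold, 4 of the 8 higher calls were made in every refit with other size factors, DESeq2, no filter, the replicate block or 1 library left out (ENSSSCG00000051238, ENSSSCG00000041118, ENSSSCG00000043385 and ENSSSCG00000049190), and of the 3 lower calls 2 (ENSSSCG00000045832 and ENSSSCG00000041032).

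ENSSSCG00000051238 rose from P3 to P7 with a log2 fold change of 1.18 (SE 0.21) and an adjusted p of 0.0185 by edgeR's quasi-likelihood test, and its 3 P7 libraries were all above its 3 P3 libraries. ENSSSCG00000041118 had a fitted log2 fold change of 6.90 (SE 1.47) with an adjusted p of 0.0354 in the same edgeR fit, in 2 of 3 P7 libraries. That fitted value rests on 200 counts at P7 and 1 count at P3, a pooled ratio of 179 with a 95% counting interval from 31.7 to 7087. The interval is for counting error only and leaves out the spread between the P7 libraries (0, 104 and 96 counts). Without P3 replicate 4 the fitted log2 fold change was 8.91. ENSSSCG00000049190, at chr2:106184715-106191417 and 499 kb from the nearest protein-coding row, had 1.06, 0.900 and 1.17 CPM at P3 and 2.39, 2.96 and 1.70 CPM at P7, with a log2 fold change of 1.05 and an adjusted p of 0.152. ENSSSCG00000043385 differed by 2.16 on the log2 scale (1.48 without P3 replicate 6) with an adjusted p of 0.103 in edgeR's test. In both, all 3 P7 libraries lay above all 3 P3 libraries, and neither passed the adjusted threshold.

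ENSSSCG00000043629, at chr6:145772610-145776372, 4.12 kb from DNAI4, a dynein chain of motile cilia, had 3.70, 6.36 and 5.90 CPM at P1, 7.21, 2.14 and 3.04 CPM at P3, 14.2, 5.92 and 10.8 CPM at P7 and 9.86, 10.15 and 13.6 CPM at P28. The P3 and P7 ranges overlapped through P3 replicate 4, and the adjusted p by edgeR was 0.136. Its P7 to P3 log2 fold change was 1.25, or 1.86 without P3 replicate 4, and the call was lost without P7 replicate 4 (0.96). ENSSSCG00000050978, which is named here after its values were seen because it lies 5.07 kb from KLHL24, had 1.34, 0.289 and 1.08 CPM at P1, 0.961, 1.01 and 0.623 CPM at P3, 3.82, 4.02 and 1.70 CPM at P7 and 8.47, 2.44 and 2.67 CPM at P28. All its P7 and P28 libraries were above its P1 and P3 libraries, with a P7 to P3 log2 fold change of 1.77 and an adjusted p of 0.158 in the edgeR fit. That call was lost without P3 replicate 6 (1.55). The other 2 higher calls were ENSSSCG00000050105 (log2 fold change 0.61) and ENSSSCG00000042842 (0.74), the latter named after its values were seen. Both calls likewise depended on single libraries. The call of ENSSSCG00000050105 was lost without P3 replicate 5 (0.45), P3 replicate 6 (0.63) or P7 replicate 4 (0.34). That of ENSSSCG00000042842 was lost without P3 replicate 6 (0.50), P7 replicate 4 (0.77) or P7 replicate 6 (0.66), and also with no filter (0.75) and in DESeq2 (0.76).

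ENSSSCG00000045832 lies at chr6:3474735-3482375 within the RefSeq span of GSE1 and measured 14.6, 17.8 and 12.6 CPM at P1, 24.8, 64.8 and 28.2 CPM at P3, 14.6, 10.5 and 11.7 CPM at P7 and 32.6, 29.9 and 34.6 CPM at P28. All P3 values were above all P1 and P7 values, and P3 replicate 5 was above every P28 value. The log2 fold change from P3 to P7 was -1.79 (SE 0.34), or -1.17 without P3 replicate 5, with an adjusted p of 0.0243 by edgeR's quasi-likelihood test. An overlapping lncRNA row, ENSSSCG00000042639, had means of 26.3, 55.2, 21.5 and 49.0 CPM at the 4 ages, and reads shared between the 2 rows and separate transcripts cannot be told apart. The row of GSE1 itself, 50.2 kb away in the gene table, had means of 51.8, 92.3, 63.0 and 86.8 CPM. Its P7 to P3 log2 fold change was -0.67, and whether ENSSSCG00000045832 follows GSE1 was not tested.

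ENSSSCG00000041032, at chr2:150769934-150777874, measured 3.36, 4.48 and 3.74 CPM at P1, 9.13, 9.79 and 5.76 CPM at P3, 5.44, 4.25 and 3.72 CPM at P7 and 10.9, 11.8 and 12.8 CPM at P28. P3 was above P7 in all libraries, P7 was mixed with P1, and P28 was highest, with a P3 to P7 log2 fold change of -0.97 and an adjusted p of 0.0651 in the edgeR fit. ENSSSCG00000045866, at chr6:69889972-69910388, had 3.29, 1.30 and 1.497 CPM at P1, 0.769, 5.63 and 0 CPM at P3, 0.191, 0.380 and 0.486 CPM at P7 and 7.55, 4.49 and 7.71 CPM at P28. Its call (log2 fold change -2.59, unadjusted p = 0.0377 by edgeR) came from P3 replicate 5, and without that library the log2 fold change was -0.04. The call was also lost with the replicate block (-2.36) and without P7 replicate 4, 5 or 6. Its P7 values lay below all P1 values.

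**Figure D3:**
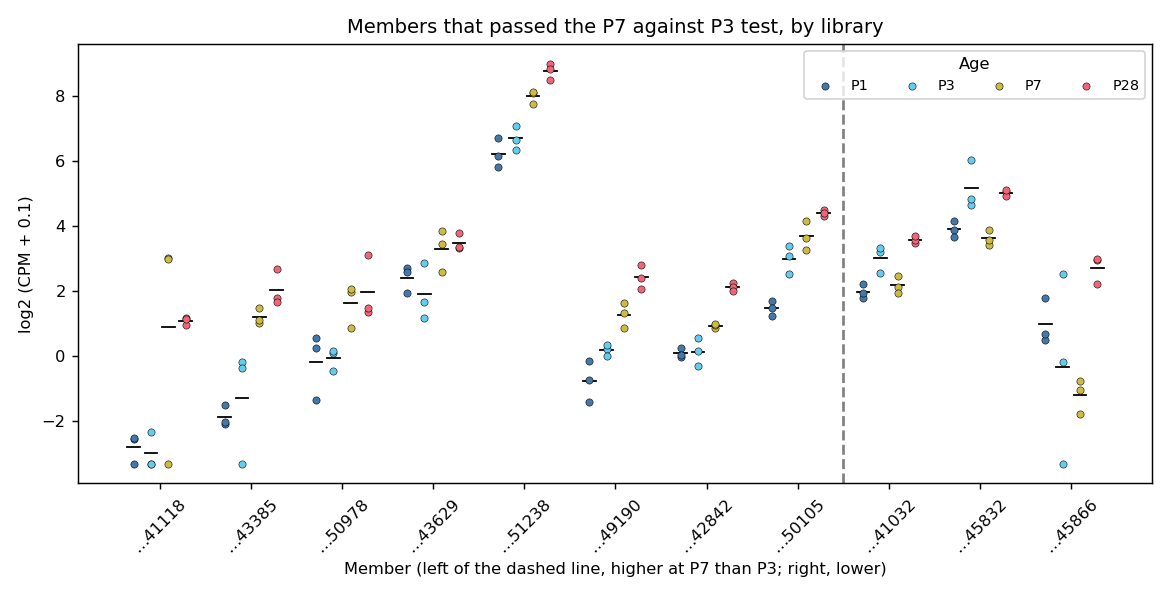
Level of the 11 lncRNAs called in the P7 against P3 test, as log2 (CPM + 0.1), with 1 point per library, colours for age and black lines for the mean of the 3 points. The 8 left of the dashed line were higher at P7 and the 3 right of it lower; the P7 points of ENSSSCG00000041118 fall into 1 at 0 CPM and 2 near 7.8 CPM.

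Single pigs stood apart over many members. P3 replicate 5 had the highest summed level of the members at that age (620 CPM) and P3 replicate 6 the lowest (390 CPM). P3 replicate 6 held the lowest of the 3 P3 values in 36 of the 58 members and the highest in 5. P28 replicate 5 held the lowest P28 value in 30 and the highest in 6.

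In position, 14 of the 58 lay in 6 groups of members with gaps of at most 50 kb. With a largest gap of 10 kb 7 members, and of 200 kb 20 members, were in groups. With the age means removed, the median correlation of log2 CPM over 12 libraries was 0.95 for the 11 pairs of members within a group and 0.13 for 1232 pairs on different chromosomes. Of the 11 pairs 6 are those of 1 group on chromosome 6, and the groups of ENSSSCG00000043189 and ENSSSCG00000051238 had lower values that fell below 0 when 1 library was left out. Members of 1 group share the library, its depth and possibly reads of 1 transcript, and the values are a description with no test.

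The largest group holds 4 members in 72.6 kb, at chr6:147320283-147392868. They are ENSSSCG00000047798 (chr6:147320283-147327453), ENSSSCG00000041959 (chr6:147328418-147336903), ENSSSCG00000043666 (chr6:147343979-147354875) and ENSSSCG00000048106 (chr6:147390565-147392868). In the gene table they lie between AK4, a mitochondrial adenylate kinase, 62.5 kb away, and JAK1, the kinase of many cytokine receptors, 36.2 kb away, and in RefSeq all 4 fall inside the longer span given to JAK1. Reads of an extended JAK1 transcript and of separate lncRNAs could not be told apart.

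ENSSSCG00000047798 measured 37.4, 26.0 and 22.5 CPM at P1, 28.2, 58.6 and 16.7 CPM at P3, 37.5, 40.1 and 30.8 CPM at P7 and 106, 76.7 and 112 CPM at P28. ENSSSCG00000041959 measured 30.8, 22.8 and 20.8 CPM at P1, 23.0, 60.2 and 13.7 CPM at P3, 33.9, 32.3 and 26.4 CPM at P7 and 81.8, 77.4 and 90.3 CPM at P28. The P28 libraries stood above all others in both, and P3 replicate 5 was high and P3 replicate 6 low in each. ENSSSCG00000043666 had 7.73, 4.55 and 5.82 CPM at P1, 5.19, 16.5 and 3.27 CPM at P3, 8.02, 9.95 and 7.77 CPM at P7 and 24.6, 19.1 and 24.1 CPM at P28. ENSSSCG00000048106 had 2.96, 2.53 and 1.66 CPM at P1, 2.12, 3.71 and 0.778 CPM at P3, 3.34, 3.95 and 2.83 CPM at P7 and 8.24, 7.32 and 8.80 CPM at P28. The latter 2 repeated the order of the P3 pigs seen in the former 2, and the median correlation within ages was 0.95 over the 6 pairs, or 0.87 without P3 replicate 5. None of the 4 was called between P3 and P7 with all libraries, and all 4 were called higher at P7 when P3 replicate 5 was left out.

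The flanking genes gave other patterns. JAK1 had 498, 443 and 502 CPM at P1 and 495, 467 and 492 CPM at P28, with overlapping values and a log2 fold change of 0.00 (SE 0.11). AK4 had 55.2, 29.5 and 35.2 CPM at P1 and 14.2, 13.2 and 16.6 CPM at P28, so all P28 values were below all P1 values, and it fell by 1.48 on the log2 scale (SE 0.25) with an adjusted p of 0.0023 by edgeR's quasi-likelihood test.

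ENSSSCG00000041959 was the only one of the 58 that holds a miRNA row, ssc-mir-101-2, at chr6:147330890-147330972, and no member holds a snoRNA, snRNA or scaRNA row. The mature miRNA, miR-101, represses many transcripts, among them that of the histone methyltransferase EZH2. It was looked up in the small RNA libraries of the same ages after the position of the row was seen. Its entry for mir-101-2 read 2065, 2443 and 1878 CPM of miRNA counts at P1, 2693, 2947 and 2834 CPM at P3, 2359, 2431 and 2079 CPM at P7 and 3808, 4120 and 3627 CPM at P28. P28 stood above all other ages, P3 above P1 and P7, and P1 and P7 overlapped. The P28 to P1 log2 fold change was 1.03 (SE 0.14) with an adjusted p of 6.21e-05 by edgeR's quasi-likelihood test over 305 miRNA entries, of which 20% were called higher at an adjusted p under 0.05. From P3 to P7 it fell by 0.45 on the log2 scale with an adjusted p of 0.0378 in the same edgeR fit, where 12.1% of entries were called lower. The reads of mature miR-101 are shared with a second precursor, ssc-mir-101-1, whose entry gave 1.03 as well, so the part that comes from this locus cannot be told apart.

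**Figure D4:**
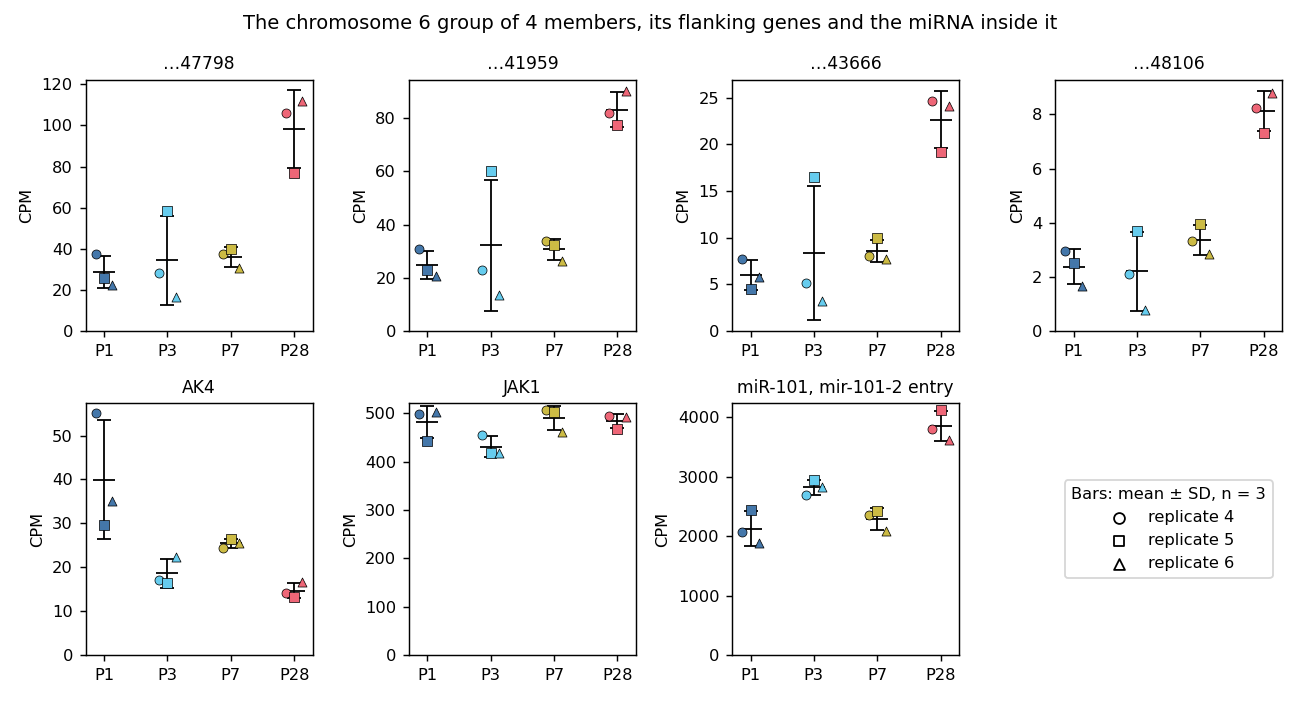
Level by library of the 4 grouped lncRNAs of chromosome 6, of AK4 and JAK1 on either side, and of the miR-101 entry of the precursor inside ENSSSCG00000041959, in CPM (of gene counts, or of miRNA counts for miR-101). Symbols mark replicates and bars the mean ± SD of 3 pigs; the 4 lncRNAs and miR-101 are highest at P28, the P1 and P28 values of JAK1 overlap and AK4 is lowest at P28.

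On chromosome 13 a row of members lies beside ADAMTS9, a secreted metalloprotease of the extracellular matrix. ENSSSCG00000044457 (chr13:46269596-46274486) and ENSSSCG00000048519 (chr13:46300113-46302658) form a group at 50 kb, and ENSSSCG00000051584 and ENSSSCG00000049500 join them at 200 kb. All 4 overlap the same RefSeq lncRNA, LOC106505633, so parts of 1 transcript and separate transcripts cannot be told apart. ENSSSCG00000044457 measured 2.82, 1.44 and 2.41 CPM at P1, 8.08, 6.08 and 0.778 CPM at P3, 2.10, 2.89 and 2.67 CPM at P7 and 32.6, 28.8 and 48.8 CPM at P28. ENSSSCG00000048519 measured 0.806, 0.794 and 1.16 CPM at P1, 2.21, 2.14 and 0.311 CPM at P3, 0.954, 0.987 and 0.972 CPM at P7 and 13.6, 11.9 and 21.9 CPM at P28. ENSSSCG00000049500 measured 1.14, 1.16 and 1.41 CPM at P1, 4.04, 3.83 and 0.389 CPM at P3, 0.573, 2.13 and 1.46 CPM at P7 and 16.7, 15.6 and 28.4 CPM at P28. In these 3 the P28 values were far above all others, P28 replicate 6 was highest, 2 of the 3 P3 pigs were raised, and P3 replicate 6 was the lowest of the 12 libraries. Without P3 replicate 6 all 3 were called lower at P7 than at P3, and with all libraries none was. The correlation within ages of the first 2 was 0.95, or 0.62 without P3 replicate 6. ENSSSCG00000051584, in the same row, was already at its P28 level at P3 (values above) and did not follow the others. The ADAMTS9 row itself measured 328, 249 and 263 CPM at P1 and 263, 306 and 206 CPM at P28, with overlapping values and a log2 fold change of -0.13 (SE 0.18).

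ENSSSCG00000051259 (chr13:192071835-192077317) and ENSSSCG00000043820 (chr13:192077654-192080436) are less than 1 kb apart and 169 kb from N6AMT1, the nearest tested protein-coding row. The former had 0.0672, 0.433 and 0.333 CPM at P1, 2.60, 0.113 and 1.25 CPM at P3, 1.24, 0.835 and 2.19 CPM at P7 and 3.23, 7.63 and 7.42 CPM at P28. The latter had 0.0672, 0.361 and 0.416 CPM at P1, 2.60, 0.225 and 1.40 CPM at P3, 1.15, 0.759 and 2.19 CPM at P7 and 2.54, 5.98 and 7.61 CPM at P28. Their order of pigs was nearly the same, with a correlation within ages of 0.98 (0.97 without P3 replicate 5), and P28 was above all other ages except that P3 replicate 4 of the latter exceeded its lowest P28 value.

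On chromosome 2, ENSSSCG00000051238 and ENSSSCG00000041032 are in 1 group with a correlation within ages of 0.32 (-0.16 without P3 replicate 6), and they went opposite ways between P3 and P7, as given above. A row for ssc-mir-378-1 lies within 50 kb of this group and outside both members. ENSSSCG00000043189 and ENSSSCG00000043284, inside the RefSeq span of JADE2, correlated at 0.59 within ages and at -0.20 without P3 replicate 5, in which ENSSSCG00000043284 had 14.9 CPM where its other P3 libraries had 5.96 and 2.72 CPM. Its P28 values were 19.6, 14.0 and 28.9 CPM. On chromosome 6, ENSSSCG00000041426 and ENSSSCG00000049922 lie in 19.1 kb, 195 kb from IRX3, a homeobox factor of the ventricular conduction system, and correlated at 0.80 (0.72 without P1 replicate 4). ENSSSCG00000041426 measured 1.41, 3.25 and 3.08 CPM at P1, 6.54, 5.63 and 3.43 CPM at P3, 3.63, 6.83 and 6.88 CPM at P7 and 4.85, 5.82 and 9.30 CPM at P28. Its P1 values were the lowest, and the 3 later ages overlapped.

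No member overlaps a protein-coding row of the gene table. The median gap of a member to the nearest one was 38.6 kb, against 17.3 kb over the 536 other lncRNA rows tested. A protein-coding row lay within 50 kb of 32 members (55.2%, against 69.96% of the others) and within 5 kb of 12 (20.7%, against 33.4%). In RefSeq, whose gene spans are often longer, 17 members (29.3%) overlap a protein-coding span, against 31.9% of the others, 30 overlap a RefSeq lncRNA and 15 neither. These differences were not tested. Another noncoding row of the gene table overlaps 14 members.

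The nearest protein-coding genes were not chosen on their own values and were therefore tested between P28 and P1. The 58 members have 48 different nearest genes among the rows of this table, of which 35 had enough counts. Gaps and nearest genes hold for these rows only, and ENSSSCG00000043189 and ENSSSCG00000043284 overlap the RefSeq span of JADE2, ENSSSCG00000041901 that of CCDC112 and ENSSSCG00000045539 that of NECAB2, genes not matched to a row by symbol. Of the 35 genes tested, 9 (25.7%) were called higher at P28, where 9.91% of the 4591 protein-coding genes tested were, and 2 (5.71%) were called lower, where 12.5% of all were. At an adjusted p under 0.05, 6 were higher (17.1%, background 7.23%) and 2 lower (5.71%, background 8.54%). The median log2 fold change was 0.31 over the 35 and -0.01 over all protein-coding genes. With neighbours within 50 kb only, 5 of 25 were called higher and 1 lower. Taking the nearest gene that was itself tested, an alternative chosen after the data were seen, gave 48 genes with 13 higher and 4 lower.

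KLHL24, an adaptor of a cullin ubiquitin ligase that is linked to cardiomyopathy and lies 5.07 kb from ENSSSCG00000050978, had 1004, 1144 and 903 CPM at P1, 1112, 1040 and 903 CPM at P3, 1302, 1227 and 1161 CPM at P7 and 2126, 1839 and 1759 CPM at P28. Its P28 values were above all others and its P7 values above all of P1 and P3, with a P28 to P1 log2 fold change of 0.90 (SE 0.14) and an adjusted p of 0.00149 by edgeR's quasi-likelihood test. CTH, which makes cysteine and hydrogen sulfide and lies 64.5 kb from ENSSSCG00000050303, had 14.0, 7.51 and 9.81 CPM at P1 and 27.5, 24.8 and 32.7 CPM at P28. The 2 groups did not overlap, and the adjusted p by edgeR was 0.0186. OLFM1, a secreted olfactomedin glycoprotein 15.7 kb from ENSSSCG00000041239, had 14.7, 11.6 and 14.6 CPM at P1 and 61.8, 16.2 and 35.4 CPM at P28, with a wide spread at P28, a log2 fold change of 1.46 (0.88 without P28 replicate 4) and an adjusted p of 0.0203 in the edgeR fit.

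SATB1, an organiser of chromatin 2.32 kb from ENSSSCG00000045354, had 83.8, 106 and 94.4 CPM at P1 and 161, 135 and 144 CPM at P28 (log2 fold change 0.63, SE 0.17, adjusted p = 0.0245 by edgeR). ZCCHC2, 0.283 kb from ENSSSCG00000039179, and PTPRM, 79.5 kb from ENSSSCG00000043385, were higher by 0.48 and 0.47 on the log2 scale, below the fold that a call needed, with adjusted p of 0.0237 and 0.0433 in the same edgeR fit. All 3 P28 libraries lay above all 3 P1 libraries in these 3 genes. The genes with the opposite sign were AK4, given above, and DNAI4, which had 3.02, 3.39 and 5.07 CPM at P1 and 1.62, 1.89 and 2.18 CPM at P28, without overlap, and fell by 1.01 on the log2 scale (adjusted p = 0.0353 by edgeR). DNAI4 is the neighbour of ENSSSCG00000043629, whose own values rose, and AK4 the neighbour of ENSSSCG00000047798 and ENSSSCG00000041959. Between pigs of the same age, the median correlation of a member with its nearest tested gene within 50 kb was 0.25 over 28 members, positive in 19, with the nearest tested gene at any distance it was 0.15 over all 58, and with all protein-coding genes it was -0.01.

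**Figure D5:**
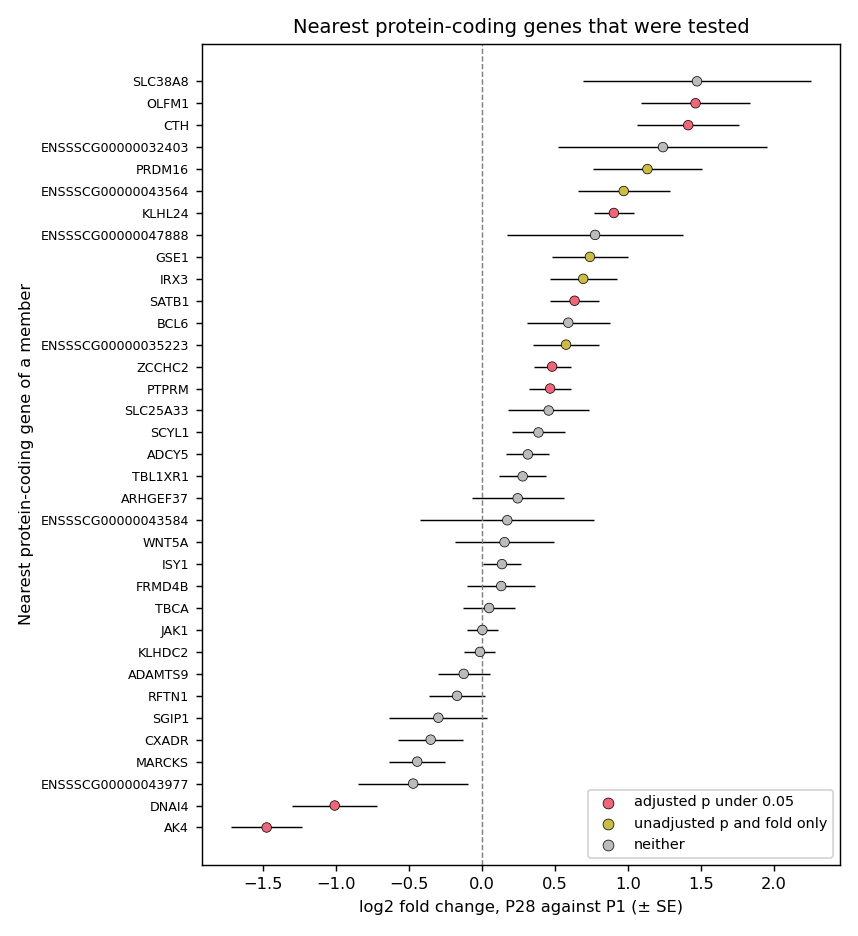
Log2 fold change from P1 to P28 (± SE, n = 3 pigs per age) of the 35 tested protein-coding genes that are nearest to a member, ordered by value. Red points passed an adjusted p under 0.05 (6 higher, 2 lower) and yellow points the unadjusted threshold and fold only; JAK1 and ADAMTS9, beside the chromosome 6 and chromosome 13 rows of members, lie near 0.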

How the data were processed

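The 12 batch cd libraries, 3 pigs at each of 4 ages, were used. The deposited gene values are raw read counts, with start, end and biotype of each gene but no strand, so the arrangement of neighbours on the strands was not described. The gene table names no build; 4509 of 4513 protein-coding symbols found once (99.9%) overlapped their RefSeq Sscrofa11.1 spans, so positions are given as in the table and RefSeq was used for names and neighbours. The counting tool and its strand setting are not given in the sources used here; the submitters' processing notes list STAR 2.7.9a, MultiQC 1.11 and Sscrofa10.2. The gene table ends within chromosome 2, and 1 line without counts was left out. Rows named Metazoa_SRP (9) held 7.09% to 19.7% of counts and stayed in the totals. For miRNAs the authors deposited expected counts, here rounded (2921130 to 7917255 per library).

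Genes with at least 10 counts in at least 3 libraries were fitted with edgeR 4.0.16 in R 4.3.3 (TMM, quasi-likelihood test, 4 ages in 1 fit) and p-values adjusted by Benjamini-Hochberg over all genes tested. The fit was tested on simulated data. DESeq2 1.42.0, other size factors, no filter, a replicate block and each library left out were alternatives. All 58 members passed this filter, through the level the rule demands at P28. Correlations used log2 CPM with age means removed. Members, lists and tests were chosen with earlier results of these data known. The members named are the 6 with the highest P28 CPM, the 6 with the highest ratio, up to 5 called in each direction between P3 and P7, 3 per timing class and those at the thresholds, and the neighbours named are those at an adjusted p under 0.05. Groups, their members, the genes beside them and the other rows named outside this rule were named after their values were seen.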

Additional observations from a re-analysis of the deposited data

How the results depend on the processing

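The 58 members became 57 with TMM-normalized CPM, 54 with totals without Metazoa_SRP, 109 with 1.5 times P1, 36 with 3 times P1, and 52 to 70 when 1 P1 or P28 library was left out. The 40 members below the midpoint at both ages stayed between 34 and 43 under all settings tried (36 to 43 when 1 library was left out). Of the calls between P7 and P3, 8 higher and 3 lower, 2 and 1 were left at an adjusted p under 0.05, DESeq2 gave 8 and 4, and leaving out 1 library gave 5 to 13 higher and 2 to 7 lower. Of the nearest protein-coding genes, 9 called higher and 2 lower, 5 and 1 were left within 50 kb, the nearest tested gene (chosen after seeing the data) gave 13 and 4, and leaving out 1 library gave 8 to 13 and 2 to 3. Members in genomic groups numbered 14 at 50 kb, 7 at 10 kb and 20 at 200 kb. Of 304 refits of 19 named genes, 289 kept direction and side of the threshold, 15 kept direction only and none reversed; the cause of these changes was not tested.

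The replicate numbers did not pair the pigs: same-numbered libraries correlated at a median of 0.04 (-0.19 to 0.33), and 6 of 12 libraries correlated best with their own number. With the replicate block the P7 to P3 calls were 9 higher and 2 lower and the neighbours' calls 10 and 2. With 3 pigs per age, rows near 2 CPM rest on about 20 to 30 counts per library, and differences there within counting error were not detectable at this depth.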
